A study of Mus musculus with 12 samples.

Results

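Described here are brain CD4 T cells whose T cell receptor was shared by at least 2 such cells of the same pool, called expanded. They are set against singletons, CD4 T cells whose receptor was found in no other CD4 T cell of the pool. Only cells meeting the rule below were counted, so a singleton's receptor may also be held by cells outside that rule. A cell was kept with at least 500 genes detected and at most 10% of its UMIs (unique molecular identifiers, 1 per captured transcript) from mitochondrial genes. It counted as a CD4 T cell with at least 1 Cd4 UMI and none of Cd8a, Cd8b1 or Trdc. Of 18374 barcodes 17962 were kept and 2914 met that rule. A receptor was recorded for 2712 of them, and 202 had none and were left out. The 2712 cells fell into 2395 clones: 130 expanded clones with 447 cells and 2265 singletons. The members were chosen by 2 measured values, the UMIs of those 4 genes and the clone size, and neither is a result. Just inside the threshold stood 92 clones of exactly 2 cells, 184 cells in all, and just outside it the singletons. Of the 2712 cells, 934 met the rule with a single Cd4 UMI.

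T cells were sorted as CD4+, CD8+ and γδ+ cells from the brains of perfused female mice aged 9 months, and each sorted pool gave a 5′ gene expression library and a receptor library. PS19 mice carry mutant human tau (MAPT) under the mouse prion protein promoter, and 5XFAD mice carry mutant human transgenes and form amyloid plaques. Both lines were crossed as hemizygotes, B6C3F1/J for PS19 and C57BL6 congenic for 5XFAD, and littermates were used. WT-1 joined 10 wild-type mice and WT-2 joined 8, 5XFAD-1 joined 4 mice with the 5XFAD transgenes and 5XFAD-2 joined 3, PS19 joined 4 mice with tau alone, and PS-5X joined 4 mice with both. No mouse was given an agent. Since cells of several mice were joined, a clone is defined within a pool and not within a mouse, and the pool is the replicate. PS19 and PS-5X are 1 pool each.

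A CD4 T cell recognises peptides on MHC class II through a receptor whose α and β chains are assembled from gene segments, with bases trimmed and added at the joints. Cells with an identical receptor usually descend from 1 ancestor, so a receptor found repeatedly marks division after activation. Naive CD4 T cells keep the lymph node homing receptor gene Ccr7. After activation they may turn to type 1 helper cells, which make interferon gamma under the factor T-bet (Tbx21), to other helper types, to Foxp3+ regulatory T cells that restrain responses, or, less often, to cytotoxic cells with granzymes.

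The CDR3, the loop of each chain that touches the peptide, is printed for the expanded clones on which the results turn most. Each is written 5′ to 3′ as the deposited consensus has it. Capitals mark bases that neither the V nor the J segment alignment reaches, and a chain in lower case throughout has no such bases. The alignments may run into D segment or added bases, so lower case does not show that a chain lacks them. The first pair is from the largest clone of all, 49 cells in 5XFAD-1, made with TRAV9-4 and TRBV5, the second from the next clone of that pool, 28 cells with TRAV8D-1 and TRBV5. Both recur in WT-1.
5XFAD-1 clone 1, α chain: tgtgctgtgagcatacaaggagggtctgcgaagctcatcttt
5XFAD-1 clone 1, β chain: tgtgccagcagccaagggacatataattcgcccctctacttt
5XFAD-1 clone 2, α chain: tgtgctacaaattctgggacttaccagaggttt
5XFAD-1 clone 2, β chain: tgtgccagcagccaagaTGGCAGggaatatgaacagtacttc

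The next sequences are from the largest clones of WT-2 (26 cells), PS-5X (17 cells) and 5XFAD-2 (9 cells), and from a PS-5X clone of 5 cells that held the highest Gzma level of any clone of 5 or more cells.
WT-2 clone 1, α chain: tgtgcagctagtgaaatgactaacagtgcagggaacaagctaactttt
WT-2 clone 1, β chain: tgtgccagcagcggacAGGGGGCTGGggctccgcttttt
PS-5X clone 1, α chain: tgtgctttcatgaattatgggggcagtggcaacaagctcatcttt
PS-5X clone 1, β chain: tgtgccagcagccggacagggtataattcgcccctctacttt
5XFAD-2 clone 1, α chain: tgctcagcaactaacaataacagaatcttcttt
5XFAD-2 clone 1, β chain: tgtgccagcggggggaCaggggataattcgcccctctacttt
PS-5X clone 3, α chain: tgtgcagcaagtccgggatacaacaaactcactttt
PS-5X clone 3, β chain: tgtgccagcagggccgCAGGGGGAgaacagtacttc

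2 pools stood apart before any comparison. All 4 expanded clones of WT-1, 13 cells, carried α and β chains identical to clones of 5XFAD-1: WT-1 clones of 4, 4, 3 and 2 cells matched clones of 28, 49, 3 and 5 CD4 cells there. A further 12 of the 118 WT-1 singletons carried a receptor seen in some cell of another pool. In all, 10 CD4 receptors were in both WT-1 and 5XFAD-1 and 3 in both WT-1 and PS19, while the other pairs of pools shared none. Any pair of pools shared 1 to 23 cell barcodes, and 0 CD4 T cells had both the same barcode and the same receptor in 2 pools. The files used here do not settle where the shared receptors came from, so the expanded cells of WT-1 may not be clones separate from those of 5XFAD-1. The expanded sum of WT-1 is therefore given beside the other pools, and each comparison was repeated with 1 or both of these pools left out.

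The pools held 854 to 6373 barcodes and 5883210 to 38616794 UMIs. UMIs per summed group ran from 88933 to 1023148 for expanded and from 906400 to 3553041 for singleton cells, so a level in the expanded sum of WT-1 rests on the fewest counts. The median UMIs per cell were 4188 to 6756 in expanded and 5272.5 to 6956.5 in singleton cells, a mean difference of -366 over pools (exact sign-flip permutation test, 2-sided, p = 0.219, n = 6, lower in 5 of 6). The difference was -575.5 without 5XFAD-1 (exact p = 0.0625, the smallest that 5 pools allow) and -222.8 without WT-2. The median share of mitochondrial UMIs was 0.252 percentage points lower in expanded cells, lower in 6 of 6 pools (exact sign-flip permutation test, p = 0.03125, the smallest that 6 pools allow).

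The label was checked against marker genes, given as CPM (a gene's share of the UMIs in a sum, in units of 1e-06, with totals scaled by TMM as in the test of genes). Cd3e, a subunit of the T cell receptor complex, was 1123 to 1755 CPM in the expanded sums and 1151 to 1299 CPM in the singleton sums. Cd40lg is the helper ligand that activates B cells and myeloid cells. It was 93.3 to 754 CPM in the expanded and 339 to 442 CPM in the singleton sums. Expanded cells had the higher Cd40lg level in only 2 pools. Cd28 was 319 to 465 CPM in the expanded and 401 to 471 CPM in the singleton sums. Expanded cells had the higher Cd28 level in only 1 pool. Cd3e, Cd3g and Cd5 were each higher in the expanded cells of 5 pools. Receptor chains were complete in every expanded cell, and both chains were recorded in 78.6% to 89.0% of singletons. Whether a singleton with a chain missing belongs to an expanded clone is not known. Of the 130 expanded clones, 15 also held a cell with Cd8 UMIs and 2 held more such cells than CD4 cells.

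Most expanded clones were small. Beside the 92 clones of 2 cells, 24 had 3 or 4 cells (81 cells) and 14 had 5 or more (182 cells). The 4 clones above 10 cells held 120 cells, of which 77 belonged to the first 2 clones of 5XFAD-1. Per pool, the largest clone had 4, 26, 49, 9, 6 and 17 cells (WT-1, WT-2, 5XFAD-1, 5XFAD-2, PS19, PS-5X). 5XFAD-1 also held 7 of the 14 clones of 5 or more cells, and WT-1 none.

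**Figure D1:**
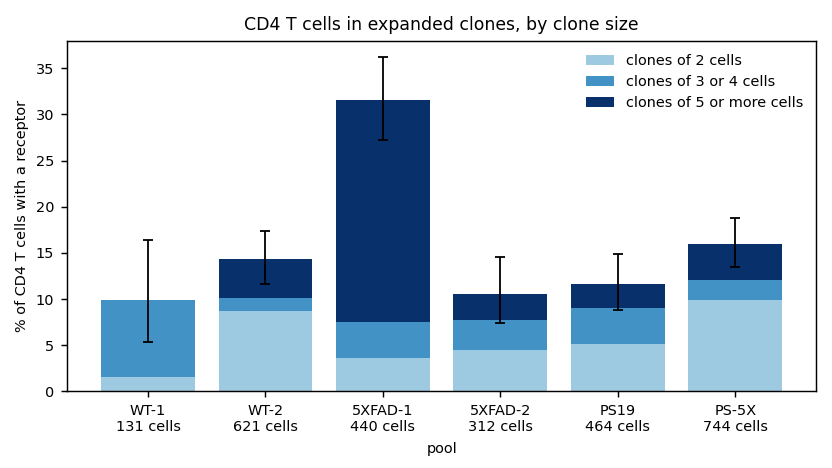
Percent of the CD4 T cells with a receptor that lay in expanded clones of each pool, as stacked bars by clone size (2 cells, 3 or 4 cells, 5 or more cells), with exact 95% binomial intervals of the total. 5XFAD-1 stands at 31.6%, mostly in clones of 5 or more cells, and the other 5 pools between 9.92% and 16.0%.

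The share of CD4 T cells in expanded clones was 9.92% in WT-1 (exact Clopper-Pearson 95% interval 5.39% to 16.4%, counting error only), 14.3% in WT-2 (11.7% to 17.3%) and 11.6% in PS19 (8.86% to 14.9%), the pools without amyloid. With amyloid it was 31.6% in 5XFAD-1 (27.3% to 36.2%), 10.6% in 5XFAD-2 (7.39% to 14.5%) and 16.0% in PS-5X (13.4% to 18.8%). 5XFAD-1 alone lay above all other pools, and 5XFAD-2 lay among the pools without amyloid. The mean was 19.4% ± 10.9 (SD, n = 3) with amyloid and 12.0% ± 2.22 (SD, n = 3) without, a difference of 7.42 percentage points that was within the spread between pools (exact permutation test, 2-sided, p = 0.3, where 0.1 is the smallest possible). Without 5XFAD-1 it was 1.32 points. With WT-1 cells whose receptor was also in another pool left out, WT-1 had 0 expanded cells and the difference was 10.7 points (p = 0.3 in the exact permutation test). Per the labels, a run of their own held WT-2 and 5XFAD-2. Between those 2 pools the difference was -3.75 points, and among the other 4 it was 13.0 points. A pool with more cells gives a rare clone more chances to be seen a second time. Drawn to equal cell numbers, the shares were 9.92%, 6.92%, 26.2%, 7.18%, 5.58% and 5.59% in WT-1, WT-2, 5XFAD-1, 5XFAD-2, PS19 and PS-5X. Amyloid pools then stood 5.53 points above the others (p = 0.6 in the exact permutation test).

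Expanded CD4 T cells differed from singletons of the same pool in 762 of 7860 genes tested (9.69%) at a Benjamini-Hochberg adjusted p under 0.05 in edgeR's quasi-likelihood test, with pool as a block. Of these, 361 were higher (4.59% of genes tested) and 401 lower (5.1%), and the median log2 difference over all genes was 0.00. Among called genes with a mean of at least 20 CPM, 219 were higher in 6 of 6 pools and 313 lower in 6 of 6. DESeq2 called 597 genes (7.6%). The 6 expanded and 6 singleton sums did not overlap in 351 genes (4.47%). In the sentences that follow, a log2 value is the fitted difference, expanded minus singleton, with its SE, and every adjusted p is from that test. In bulk sums of this kind, fewer cells that express a gene and less RNA of it per cell cannot be told apart.

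Genes of cytotoxic lymphocytes rose together: 17 of 20 tested passed as higher and none as lower, with a median log2 difference of 1.21. Nkg7, a granule protein needed for degranulation, was 2229, 839, 2260, 1628, 1014 and 945 CPM in the expanded cells of WT-1, WT-2, 5XFAD-1, 5XFAD-2, PS19 and PS-5X, the order used from here on, and 580, 394, 644, 376, 385 and 421 CPM in singletons. Every expanded sum was above every singleton sum (log2 1.58 ± 0.13, adjusted p = 1.2e-06, higher in 6 of 6 pools). Ccl5, a chemokine stored by memory T cells, was 13756, 4423, 15024, 3689, 2650 and 3663 CPM in expanded and 1840, 1535, 2667, 1373, 2254 and 1767 CPM in singleton cells. It was highest in WT-1 and 5XFAD-1, and the expanded sum of PS19 was within the singletons' range (log2 1.61 ± 0.24, adjusted p = 0.00041). Without those 2 pools it rose by 1.06 (adjusted p = 0.00075).

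The granzymes, the proteases that cytotoxic granules deliver, did not follow 1 pattern. Gzma was 923, 85.6, 1929, 0, 552 and 596 CPM in expanded and 145, 44.9, 60.9, 0.597, 94.3 and 36.0 CPM in singleton cells. It was higher in 5 of 6 pools and near 0 in 5XFAD-2 in both classes, where 0 UMIs in the expanded sum allow up to 15.5 CPM (log2 3.16 ± 0.38, adjusted p = 5.7e-05). Most Gzma UMIs of the 5XFAD-1 expanded cells, 1834, lay in the clone of 49 cells. Those of the PS-5X expanded cells lay mostly, 319 UMIs, in a clone of 5 cells. Gzmk was 1047, 104, 927, 294, 169 and 183 CPM in expanded and 75.2, 85.7, 127, 79.4, 97.0 and 92.9 CPM in singleton cells, higher in 6 of 6 pools (log2 1.78 ± 0.33, adjusted p = 0.0020), and its difference was 0.97 without WT-1 and 5XFAD-1 (adjusted p = 0.0050). Gzmb was 1296, 34.7, 1033, 61.8, 25.5 and 69.2 CPM in expanded against 92.1, 41.8, 101, 27.5, 39.0 and 72.3 CPM in singleton cells. Its rise was carried by WT-1 and 5XFAD-1 (log2 1.65 ± 0.50, adjusted p = 0.045, higher in 3 of 6), and without both it was -0.04 (adjusted p = 0.97). Prf1, which encodes the pore former perforin, did not pass (log2 0.66 ± 0.31, adjusted p = 0.23).

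The chemokines Ccl4 and Ccl3, which draw effector T cells and myeloid cells, were uneven too. Ccl4 was 560, 268, 1998, 1747, 142 and 238 CPM in expanded and 188, 141, 126, 175, 117 and 96.3 CPM in singleton cells, highest in the expanded cells of both 5XFAD pools (log2 1.97 ± 0.37, adjusted p = 0.0025). Most of their Ccl4 UMIs lay in a single clone per pool. The 5XFAD-1 clone of 49 cells held 1069 and the 5XFAD-2 clone of 9 cells 208. Ccl3 was higher in only 3 pools, at 155, 160 and 258 CPM in WT-1, 5XFAD-1 and 5XFAD-2 against 38.2, 20.1 and 17.9 CPM in their singletons (log2 1.92 ± 0.46, adjusted p = 0.013). The 9-cell clone held most Ccl3 UMIs of the 5XFAD-2 expanded cells, 40. Eomes, a T-box factor of cytotoxic cells, was higher in 4 pools (log2 1.36 ± 0.40, adjusted p = 0.041). Without both WT-1 and 5XFAD-1, Ccl3 (adjusted p = 0.30) and Eomes (0.38) no longer passed, and the cytotoxic list had 12 of 20 higher with a median of 0.98. The NK receptor genes Klrd1 and Klrc1 were among the 17, while all 8 NK cell markers were too low to test: their summed level was 0 to 165 CPM in expanded and 9.69 to 57.9 CPM in singleton sums. The part of NK-like cells in these values was not tested.

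**Figure D2:**
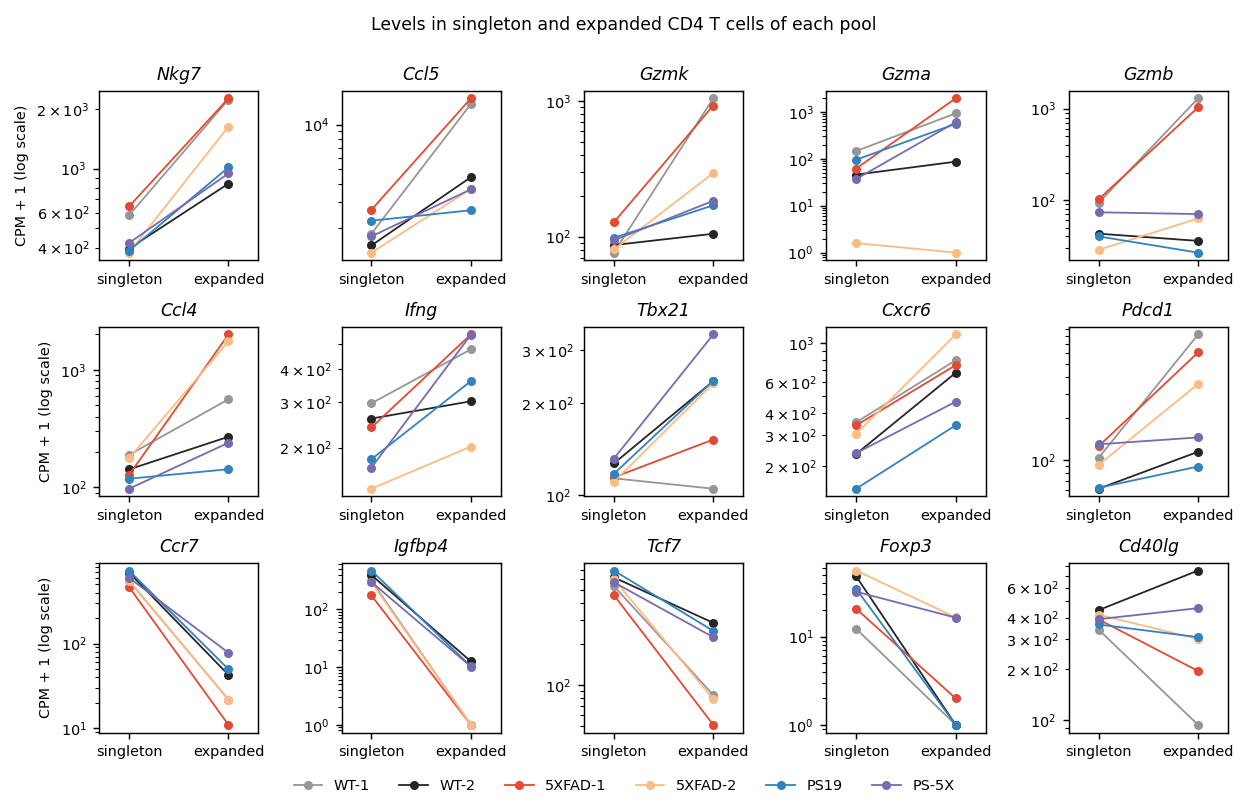
Levels of 15 genes, as CPM + 1 on log axes, in the singleton and expanded cells of each pool, each line a pool. Nkg7 and Cxcr6 rise in all 6 pools, Ccr7 and Igfbp4 fall in all 6, and Gzmb is above 1000 CPM in the expanded cells of WT-1 and 5XFAD-1 only.

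Genes of type 1 helper cells rose more moderately, in 10 of 18 tested with none lower and a median of 0.76. Tbx21 was 104, 236, 151, 232, 237 and 337 CPM in expanded and 112, 126, 113, 109, 116 and 130 CPM in singleton cells. It was higher in every pool but WT-1 (log2 0.88 ± 0.14, adjusted p = 0.00073). Ifng, which encodes interferon gamma, was 477, 301, 544, 201, 360 and 543 CPM in expanded and 295, 258, 238, 138, 180 and 166 CPM in singleton cells, higher in 6 of 6 (log2 0.94 ± 0.16, adjusted p = 0.00087). Bhlhe40, a factor that sustains cytokine production, did not overlap between classes: it was 858 to 1234 CPM in expanded and 362 to 789 CPM in singleton sums (log2 0.97 ± 0.12, adjusted p = 7.6e-05). Cxcr3, a receptor for interferon-induced chemokines, rose least of the list's called genes except Hopx (log2 0.53 ± 0.14, adjusted p = 0.021). Tnf and Il18rap were also called, while the interleukin-12 receptor genes Il12rb1 and Il12rb2 and the signalling gene Stat4 did not pass. Without both pools 10 of 17 passed.

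Genes of tissue residency rose in 12 of 17 tested, with none lower and a median of 1.02. Cxcr6, a receptor that retains T cells in tissues, was 798, 677, 749, 1118, 341 and 464 CPM in expanded against 355, 234, 341, 305, 149 and 237 CPM in singleton cells. In each pool the expanded cells held the higher level, although PS19 expanded cells lay just under WT-1 singletons (log2 1.31 ± 0.12, adjusted p = 2.8e-06). Zfp683, the residency factor Hobit, was 53.4 to 89.1 CPM in expanded and 20.3 to 35.9 CPM in singleton sums (log2 1.41 ± 0.15, adjusted p = 2.1e-05). Cdh1, which encodes E-cadherin, was 249 and 160 CPM in the expanded cells of WT-1 and 5XFAD-1 and 6.94 to 61.8 CPM in those of the other pools (log2 2.03 ± 0.29, higher in 5 of 6). The integrin gene Itga1 rose in 6 of 6 (log2 1.37 ± 0.17), and Itgae, the αE integrin, did not pass. Residency genes were as frequent without WT-1 and 5XFAD-1, at 13 of 17.

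Among inhibitory receptors and exhaustion genes 7 of 14 tested rose and none fell, with a median of 1.01. Pdcd1, the PD-1 receptor, was 819, 113, 605, 356, 88.2 and 144 CPM in expanded and 102, 60.5, 124, 90.8, 61.5 and 129 CPM in singleton cells. It was higher in 6 of 6 pools, by the widest margin in WT-1, 5XFAD-1 and 5XFAD-2 (log2 1.49 ± 0.28, adjusted p = 0.0022). Most Pdcd1 UMIs of the expanded cells lay in the 49-cell clone in 5XFAD-1 (352) and in the 9-cell clone in 5XFAD-2 (53). Rgs16, a brake on chemokine receptor signalling, was 280, 132, 297, 61.8, 44.1 and 38.4 CPM in expanded and 25.8, 10.4, 54.7, 13.7, 8.02 and 28.5 CPM in singleton cells (log2 2.38 ± 0.30, adjusted p = 8.0e-05, higher in 6 of 6). Entpd1, the ectonucleotidase CD39, was 32.5 to 135 CPM in expanded and 17.6 to 26.3 CPM in singleton sums, without overlap (log2 1.55 ± 0.25, adjusted p = 0.00061). Tigit passed with all pools (log2 0.95 ± 0.27, adjusted p = 0.033) and not without WT-1 and 5XFAD-1 (0.37, adjusted p = 0.45). Lag3 (log2 1.19 ± 0.42, adjusted p = 0.093), Tox (0.39 ± 0.22, 0.34) and Ctla4 (0.26 ± 0.14, 0.31) did not pass. Without both pools 3 of 14 passed, Rgs16, Entpd1 and Pdcd1 (log2 0.85, adjusted p = 0.031), and the median was 0.41.

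Other genes with large rises in 6 of 6 pools were Cd38, an NAD-consuming ectoenzyme (log2 1.82 ± 0.26, adjusted p = 0.00020), and Zeb2, a factor of terminally differentiated effectors (1.71 ± 0.25, 0.00026). Zeb2 was highest in the expanded cells of PS19, at 151 CPM, against 20.6 to 86.1 CPM in the other pools' expanded cells and 16.2 to 32.6 CPM in singletons. Hip1 and Ehd1, which act in endocytic traffic, rose by 1.74 and 1.57, and Ier5l, AA467197 and Tmem163 by 1.76, 1.96 and 1.57. Id2, a regulator of effector differentiation (log2 0.70 ± 0.10, adjusted p = 0.00033), and S100a4, a calcium-binding protein of memory T cells (0.69 ± 0.15, 0.0061), rose by less. Cd44, the general marker of antigen experience, did not pass (log2 0.02 ± 0.14, adjusted p = 0.97) and was 92.7 to 154 CPM in expanded and 110 to 153 CPM in singleton sums. Of 16 memory adhesion and calcium-binding genes 7 rose and Tmsb10 fell. The early T cell receptor response had 7 of 17 higher, including Irf4 (log2 1.20 ± 0.18) and Nr4a2 (1.07 ± 0.24), and 0 lower, with Nr4a1, Egr1 and Myc among those that did not pass. Without WT-1 and 5XFAD-1, 3 of 17 were higher, Dusp2, Irf4 and Cd69, and Nr4a2 did not pass. With naive-like cells left out, 2 of 17 were higher, Irf4 and Dusp2, and 1 lower, Icos. The dissociation and heat shock list had 2 of 22 higher and 0 lower.

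All 17 naive and central memory genes tested fell, with a median log2 difference of -2.58. Ccr7, which guides T cells into lymph nodes, was 20.7, 41.6, 9.93, 20.6, 48.7 and 76.9 CPM in expanded and 554, 691, 466, 554, 730 and 601 CPM in singleton cells (log2 -4.03 ± 0.23, adjusted p = 2.5e-08). Igfbp4 was 0 to 11.6 CPM in expanded and 174 to 471 CPM in singleton sums (log2 -5.78 ± 0.27, adjusted p = 2.2e-09), the lowest p in the table. For both genes the classes stood far apart in every pool.

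Factors of the quiescent state fell by less than these genes. Tcf7, the factor TCF-1, was 82.9, 284, 49.7, 77.3, 248 and 223 CPM in expanded and 533, 616, 457, 598, 692 and 567 CPM in singleton cells (log2 -1.93 ± 0.23, adjusted p = 5.0e-05). Klf2, which drives S1pr1, was 114, 742, 214, 366, 1436 and 801 CPM in expanded and 1646, 1736, 1734, 1316, 2051 and 2084 CPM in singleton cells. PS19 expanded cells kept the highest Klf2 level of their class, above the 5XFAD-2 singletons, and WT-1 and 5XFAD-1 the lowest (log2 -1.76 ± 0.27, adjusted p = 0.00043). S1pr1, the receptor for exit from tissue, was 15.5 to 167 CPM in expanded and 317 to 449 CPM in singleton sums (log2 -2.21 ± 0.28, adjusted p = 7.2e-05). Outside the list, Ifngr2, a chain of the interferon gamma receptor, fell from 60.6 to 90.1 CPM in singletons to 0 to 10.4 CPM (log2 -4.24 ± 0.34, adjusted p = 9.3e-07), and Cd55, a complement regulator, had a log2 difference of -2.97 ± 0.25. St8sia6, a sialyltransferase gene, fell by 4.80, and Sh3bp5 and Rflnb by 2.94 and 2.72.

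A naive-like cell was defined as one with UMIs of at least 2 of 5 naive genes, among them Ccr7, Lef1, Igfbp4 and Dapl1. Such cells were 7.69%, 4.49%, 2.88%, 0%, 18.5% and 10.1% of expanded cells and 44.1%, 48.9%, 29.6%, 46.6%, 58.0% and 44.8% of singletons. With each cell thinned to 3000 UMIs, which dropped 46 expanded and 127 singleton cells as too shallow, the shares were 0% to 6.86% (median 2.10%) and 25.5% to 49.5% (median 42.2%). The same score held for 5.37% to 32.7% of γδ T cells (5.67% to 21.6% thinned), whose median depth was 5891.5 to 7785 UMIs per cell. The 0% in 5XFAD-2 is 0 of 33 cells, which allows a share of up to 9.09%. The highest expanded share, in PS19, lay below the lowest singleton share, in 5XFAD-1.

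With naive-like cells left out of both classes, the comparison called 148 of 7063 genes (2.1%), 63 higher (0.892%) and 85 lower (1.2%). Of the 148, 131 were among the 762, and 696 of the 762 kept their direction. The residency list kept 7 of 17 higher, among them Cxcr6, Zfp683, Itga1, Rgs1, Cdh1 and Litaf. The cytotoxic list kept 4 of 20, Nkg7, Gzma, Klrc1 and Ctsw, and the inhibitory list kept Rgs16 and Entpd1. The type 1 helper list kept 2 genes, which the residency list also holds, Cxcr6 among them, and had Ly6c2 lower, while Tbx21, Ifng and Pdcd1 no longer passed. Cxcr3 had a log2 difference of -0.09, and Cd44 fell by 0.52 (adjusted p = 0.039). Of the naive list 8 of 13 tested still fell, among them Il7r, the interleukin-7 receptor (log2 -1.06, adjusted p = 0.00063). Ccr7, also among the 8, helped to define the cells removed.

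**Figure D3:**
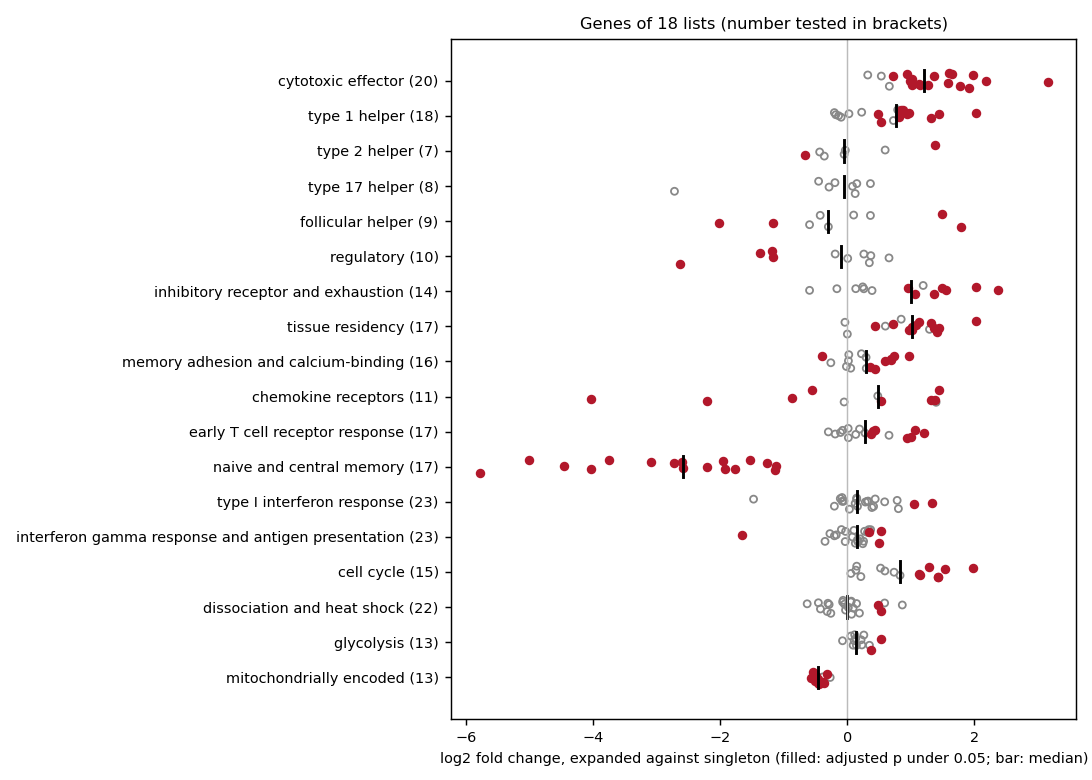
Log2 differences, expanded against singleton, of the tested genes of 18 lists, each point a gene, filled where the adjusted p is under 0.05, with a bar at the median of the list. All 17 naive and central memory genes lie below 0 and are filled, and no filled gene of the cytotoxic, type 1 helper, inhibitory or residency lists lies below 0.

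Few expanded cells had a UMI of Foxp3, the defining factor of regulatory T cells. Foxp3 had a UMI in 0, 0, 1, 1, 0 and 2 expanded cells and in 3, 34, 6, 18, 20 and 25 singletons, 1.99% to 6.45% of singletons by pool. The 0 of 13, 0 of 89 and 0 of 54 expanded cells of WT-1, WT-2 and PS19 allow shares of up to 23.1%, 3.37% and 5.56%, which limits cells with a Foxp3 UMI and not cells that express the gene. CD8 T cells, which should lack it, stood at 0.453% to 1.11%, with median UMIs of 5777 to 7384 per cell. Thinned to 3000 UMIs the singletons stood at 1.38% to 5.45% and the CD8 T cells at 0.244% to 0.475%. As a level, Foxp3 fell by 2.63 ± 0.46 on the log2 scale (adjusted p = 0.0014, lower in 6 of 6), and its log2 difference was -3.96 without PS-5X. Of 10 regulatory genes tested 4 fell and none rose: Foxp3, Ikzf2 (the factor Helios, log2 -1.19 ± 0.24, adjusted p = 0.0040), Izumo1r (-1.17 ± 0.24) and Nrp1 (-1.37 ± 0.41). With cells holding a Foxp3 UMI left out, Ikzf2 no longer passed (log2 -0.70, adjusted p = 0.14). Il2ra and Ctla4 did not pass.

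The other helper programmes are read beside the 9.69% called over all genes. The type 17 list had 0 of 8 called in either direction. Il17a was 454 and 395 CPM in the singletons of WT-1 and 5XFAD-1, 0 to 58.5 CPM in the other singletons, and 10.4, 85.6, 0.993, 0, 0 and 0 CPM in expanded cells (log2 -2.72 ± 0.97, adjusted p = 0.098). The γδ T cell markers, which mark another source of Il17a, summed to 0 to 48.7 CPM in expanded and 4.20 to 47.8 CPM in singleton sums, and their part was not tested. Of 7 type 2 genes Ccr8, a skin and tissue homing receptor, rose (log2 1.39 ± 0.29, adjusted p = 0.0054, higher in 4 of 6) and Il4ra fell. Of 9 follicular helper genes Pdcd1 and Il21 rose and Slamf6 and Izumo1r fell, while Bcl6, their defining factor, did not pass (log2 -0.43 ± 0.28, adjusted p = 0.45). Il21 was too low to test without 5XFAD-1, and it did not pass without both WT-1 and 5XFAD-1. Slamf6 was 10.4 to 86.1 CPM in expanded and 143 to 206 CPM in singleton sums (log2 -2.02 ± 0.22, adjusted p = 2.5e-05). Gata3, Rora, Icos and Ccr2 did not pass, and Cxcr5 was too low to test.

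Cell cycle genes were higher in 7 of 15 tested and lower in none (median 0.83). Mki67, which is made in cycling cells, was 31.1, 111, 281, 371, 285 and 172 CPM in expanded and 64, 106, 90.4, 80.6, 101 and 64.8 CPM in singleton cells. It was clearly higher in 5XFAD-1, 5XFAD-2, PS19 and PS-5X, near equal in WT-2 and lower in the 13 expanded cells of WT-1 (log2 1.28 ± 0.22, adjusted p = 0.0013). Cenpf, a kinetochore gene, rose by 1.97 ± 0.38, and 6 of the list, Mki67, Cenpf, Ccnb2, Birc5, Cdk1 and Ube2c, were higher without naive-like cells as well. Mcm3, Mcm5 and Pcna, genes of DNA replication, did not pass. Without 5XFAD-1 the list had 4 of 15 higher. Clones of exactly 2 cells had 2 of 13 higher, Ccnb2 and Mki67, and clones of 3 or more cells 1 of 15, Cdk1.

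Mitochondrially encoded genes fell in 11 of 13 (median -0.46), with a summed level of 8244 to 11745 CPM in expanded and 12577 to 14998 CPM in singleton sums. Genes of cytosolic ribosomal proteins, a list added after its values were seen, fell in 63 of 81 (median -0.45). Without naive-like cells 1 mitochondrial and 6 ribosomal genes passed as lower. Type I interferon genes had 2 of 23 higher, Isg20 and Ifitm3, and interferon gamma response genes 3 of 23 higher and 1 lower. Glycolysis genes had 2 of 13 higher, Pfkp and Gapdh.

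Markers of other brain cells were low in both classes. Microglia and macrophage markers summed to 206 to 325 CPM in expanded and 244 to 291 CPM in singleton sums and none of the 3 tested passed. Neutrophil markers were at 0 in every sum, and red blood cell markers at 0 in the expanded and at most 1.12 CPM in the singleton sums. Brain and endothelial markers summed to 94.4 to 155 CPM in expanded and 155 to 196 CPM in singleton sums, with Pecam1, which naive T cells also express, lower. B and plasma cell markers summed to 43.0 to 150 CPM in expanded and 176 to 2077 CPM in singleton sums. The top of that range was 5XFAD-2, where Ighm was 653 and Igkc 588 CPM in singletons. Ighm (log2 -2.01) and Igkc (log2 -1.63) were called lower, and the part of B cell RNA in the singleton values was not tested.

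Without 5XFAD-1 the comparison called 482 of 7263 genes (6.64%), without WT-1 750 of 8536 (8.79%) and without both 521 of 8268 (6.3%; 2.7% higher and 3.6% lower), of which 445 were among the 762. Without both, all 17 naive genes still fell, with a median of -2.05. With clones above 10 cells left out, 637 of 7107 genes (8.96%) were called, 4.19% as higher, the cytotoxic list had 14 of 20 higher and the residency list 13 of 17. Clones of exactly 2 cells against singletons gave 197 of 6615 (2.98%; 1.06% higher and 1.92% lower), 182 of them among the 762. In those smallest clones the naive list fell in 17 of 17 and the residency list rose in 9 of 17. Of 18 cytotoxic genes 10 rose and 1 fell: Gzmb, which was raised with all clones, was lower there (log2 -1.30, adjusted p = 0.031). The inhibitory list rose in 1 of 11 there. Clones of 3 or more cells against singletons gave 562 of 7660 (7.34%; 3.16% higher and 4.18% lower), with 17 of 17 naive genes lower, 15 of 20 cytotoxic and 12 of 17 residency genes higher, and 1 of 10 regulatory genes lower. With only the first cell of each clone by barcode order kept, 266 of 6468 genes were called. With only cells of 1 α and 1 β chain kept, 577 of 7397 were.

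**Figure D4:**
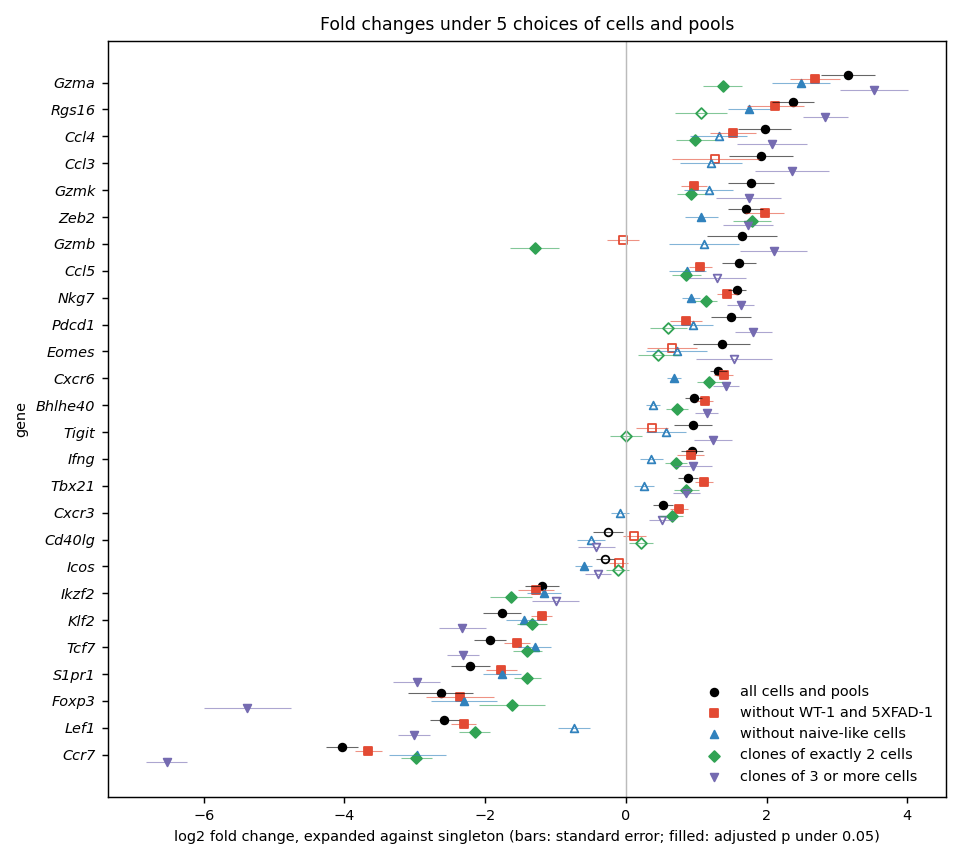
Log2 differences with standard errors, expanded against singleton, for 26 genes under 5 choices of cells and pools, filled where the adjusted p is under 0.05. Nkg7 and Cxcr6 stay above 0 and Ccr7 below 0 under each choice drawn, while Gzmb lies below 0 without WT-1 and 5XFAD-1 and in clones of exactly 2 cells.

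Large clones differed widely from each other. UMIs were summed per clone and given as plain CPM with exact Poisson 95% intervals, which cover counting error only, and a clone is a single observation with no test. Where a clone had no UMI of a gene, the limit given is that of 3 counts. In all 14 clones of 5 or more cells Tbx21 (45.6 to 913 CPM), Ifng (139 to 1409 CPM), Cxcr6 (32.0 to 1627 CPM) and Ccl5 (21.6 to 26729 CPM) had UMIs, and Foxp3 had none in any. Gzmb was at 0 in 9 of the 14, Gzma in 7 and Ccr7 in 9.

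The 2 largest 5XFAD-1 clones, whose sequences open the text, held granzymes and little helper ligand. The clone of 49 cells had Gzma at 3983 CPM (3803 to 4169), Gzmk at 1251, Gzmb at 1614 and Ccl5 at 19280 CPM, with Cd40lg at 23.9 CPM (11.9 to 42.7). The clone of 28 cells had less Gzma, 555 CPM (452 to 673), a like Gzmb of 1560 and Gzmk of 1142, and Cd40lg at 5.44 CPM (0.138 to 30.3). Their WT-1 counterparts of identical receptor, 4 cells each, had Gzmb at 1910 CPM (1358 to 2611) and 2450 CPM (1959 to 3025) and no Cd40lg UMI, which allows up to 147 and 85.5 CPM. Cells with Cd8 UMIs and the same receptor numbered 3 and 1 in the clones of 49 and 28 cells, 3 and 1 in the PS-5X clones of 17 and 5 cells, and 0 in the other 10 of the 14.

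The WT-2 clone of 26 cells, with TRAV7-4 and TRBV19, was of another kind. It had the highest Cd40lg of the 14, 992 CPM (800 to 1217), with Cxcr6 at 960, Cxcr3 at 583 and Izumo1r, a folate receptor of regulatory and anergic T cells, at 388 CPM. Gzmb had no UMI (up to 32.4 CPM) and Ccl5 stood at 21.6 CPM (2.61 to 77.9). The PS-5X clone of 17 cells, with TRAV12-3 and TRBV10, joined Ifng at 1123 CPM (889 to 1400) and Ccl5 at 4521 with Cd40lg at 611 CPM (442 to 823), and it had no Gzma UMI (up to 42.6 CPM). An 8-cell clone of 5XFAD-1 from the same 2 V genes had Cxcr3 at 1230 CPM (924 to 1605) and neither Nkg7 nor any of the 3 granzymes.

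The 5XFAD-2 clone of 9 cells had Ccl4 at 4905 CPM (4261 to 5618), Cxcr6 at 1627 and Pdcd1 at 1250 CPM, the highest Cxcr6 and Pdcd1 of the 14, and no UMI of Gzma, Gzmb or Cd40lg (each up to 70.7 CPM). The PS-5X clone of 5 cells differed in its trafficking genes. Gzma was 5107 CPM (4562 to 5699), Cx3cr1, a receptor of circulating effectors, 608 CPM (431 to 835) and S1pr5, an exit receptor of such cells, 384 CPM (246 to 572), with Cxcr6 at 32.0 CPM (3.88 to 116) and no Pdcd1 UMI (up to 48.0 CPM). A PS19 clone of 6 cells was the only other of the 14 with S1pr5 UMIs, at 126 CPM (50.9 to 261), beside Cx3cr1 at 199 and Gzma at 488 CPM.

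**Figure D5:**
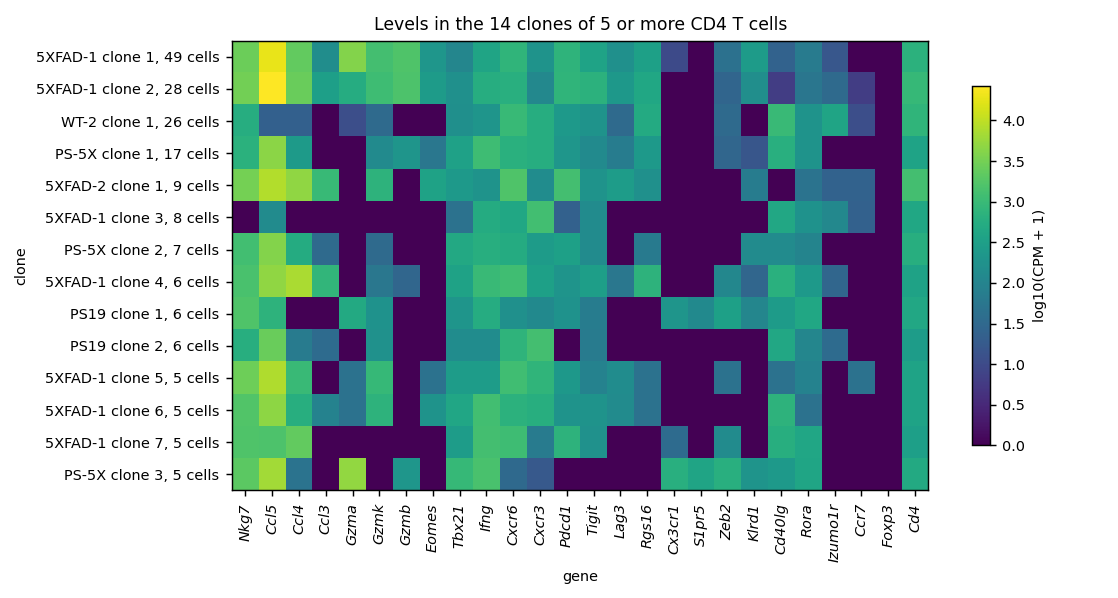
Levels of 26 genes in each of the 14 clones of 5 or more cells, a row per clone and a column per gene, coloured by log10 of CPM + 1, the darkest colour being 0 UMIs. Gzmb is brightest in the 2 largest 5XFAD-1 clones, Cd40lg in the WT-2 clone of 26 cells, and Cx3cr1 and S1pr5 in the PS-5X clone of 5 cells.

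Whether the difference between expanded and singleton cells depended on amyloid was tested as an interaction in the same model, 3 pools with amyloid against 3 without. edgeR called 0 of 7860 genes (0%), with 242 at an unadjusted p under 0.05 and a smallest adjusted p of 0.34, and DESeq2 called 0. All expanded cells of WT-1, a pool without amyloid, carried receptors of 5XFAD-1 clones. Both sides of the contrast may thus hold cells of the same clones, which limits the test. Without WT-1 edgeR called 0 of 8536 genes. Gzma levels differed within a genotype: the expanded cells of the 2 5XFAD pools were at 1929 and 0 CPM. Most Gzma UMIs of the 5XFAD-1 expanded cells lay in the clone of 49 cells. The tau transgene, with 1 pool alone and 1 with amyloid, was not tested in this way.

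The expanded clones used no β chain V gene at a share that passed the threshold. Of 19 TRBV genes with at least 20 clones, edgeR on clone counts called 0 (3 at an unadjusted p under 0.05) and DESeq2 0. TRBV29 was used by 9 of 130 expanded and 56 of 2179 singleton clones with a β chain (log2 1.47 ± 0.58, edgeR adjusted p = 0.24). TRBV2 went the other way, with 3 of 130 against 150 of 2179. The β CDR3 of expanded clones was 13.9 residues long on average, as in singleton clones, a difference of 0.068 residues over pools (exact sign-flip permutation test, 2-sided, p = 0.406, n = 6, longer in 4 of 6). It was 0.023 residues without 5XFAD-2, 0.114 without WT-1 and 0.237 for clones of 3 or more cells.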

How the data were processed

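The values analysed are raw UMI counts, 1 per gene and cell, as the authors deposited them. Cell Ranger 6.0.1 made them, a version that both the matrix header and the submitters' processing notes give. Those notes list 2 build names, GRCm38 and mm10, and assign neither to a step. The deposited contig table gives each receptor chain with its pool, and the consensus table its bases and segment ends. Whether reads were thinned to equal depth between pools is not given in the sources used here.

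UMIs were summed per pool and clone class, giving 12 sums. Receptor segment genes and the genes of the rule were left out of the test, while their UMIs stayed in the totals behind edgeR and CPM. edgeR 4.0.16 in R 4.3.3 was used with TMM, filterByExpr, the quasi-likelihood F test, a pool block (both sums of a pool come from the same mice) and 5 residual degrees of freedom. A call is a Benjamini-Hochberg adjusted p under 0.05, and the SE is the log2 difference divided by the square root of F. The biological coefficient of variation was 0.14. Counts were also simulated, drawn independently with that variation for every gene. Of these, 32.3% of 65 changed genes were recovered at a fold of 1.5, 87.3% of 63 at 2 and 100% of 60 at 4, with 5 false calls among 7857 genes. The simulation held no clones and no receptors shared between pools, so it may overstate recovery and understate false calls in the data. Alternatives were DESeq2 1.42.0, other filters and scalings, no block, other clone classes, pools left out, naive-like cells left out and doublets removed (Scrublet in scanpy 1.11.5, at 0.8% per 1000 barcodes, because its automatic threshold marked 0 to 13 barcodes per pool). Doublets were kept otherwise. Permutation tests went through every arrangement in Python 3.11.15, and scipy 1.17.1 gave the exact binomial intervals.

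The members and gene lists were chosen with earlier results of these data known, and counts of a list are read beside the share called over all genes. Named genes were the 12 largest rises and 12 largest falls among genes called with 1 direction in 6 of 6 pools and a mean of at least 20 CPM, and a set list of T cell genes. Large clones and other list genes were singled out after their values were seen. Pools are the samples the labels give, and p-values measure the spread between pools only. Some genes of the lists are counted but not reported here by name.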

Additional observations from a re-analysis of the deposited data

Results flagged for a closer look

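Each value here lay far from the other 5 pools of its class, by a gap that Dixon's test at 95% does not expect. Of 115 groups of 6 pools examined, 10 did so, and chance alone marks about 1 in 20.

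The share of CD4 T cells in expanded clones was 31.6% in 5XFAD-1, against 9.92% to 16.0% in the other pools. In expanded cells, Il17a, a type 17 cytokine gene, was 85.6 CPM in WT-2 against 0 to 10.4 CPM elsewhere. Nsg2, a gene of naive T cells, was 76.6 CPM in PS19 expanded cells against 0 to 23.1 CPM elsewhere. Atp1b1, a sodium pump subunit, was 31.1 CPM in WT-1 against 0 to 5.96 CPM, St8sia6 was 6.94 CPM in WT-2 and Tdrp 15.4 CPM in PS-5X, each against 0 to 2.32 CPM elsewhere. The Atp1b1 and St8sia6 values rest on 3 UMIs each.

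In singletons, 2 of the values were in WT-1: Cd38 at 23.6 CPM against 7.60 to 12.9 CPM in the other pools, and Hip1 at 38.2 CPM against 14.3 to 21.7 CPM. The other 2 were in 5XFAD-1. Lag3, an inhibitory receptor gene, was 64.6 CPM there against 5.73 to 21.5 CPM, and Bcl6 was lower there, 12.4 CPM against 16.1 to 16.8 CPM.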

How the results depend on the processing

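The replicate block (pool) moved little: with no replicate block 758 genes were called, 657 of them among the 762. DESeq2 called 597. The count of called genes was 482 to 750 when each pool was left out in turn, 482 without 5XFAD-1. It was 197 for clones of exactly 2 cells, 266 with 1 cell per clone, 148 without naive-like cells, 446 among the 4 pools of the common run and 235 between the 2 of the separate run, which leaves 1 residual degree of freedom. No other setting moved it by over 1.5 times. The interaction with amyloid gave 14 genes with no filter beyond 1 UMI and 0 to 1 with each pool left out, 1 without PS19 and 1 without PS-5X. The share difference was -3.75 points within the separate run, 1.32 to 11.8 points with each pool left out, and 4.63 points as the replicate block mean within runs. The mitochondrial difference was -0.267 to -0.233 points with each pool left out (exact permutation p = 0.0625, the smallest 5 pools allow).

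Over all settings, the 44 called genes that the naming rule gives kept direction and call in 950 values, lost the call in 79 and turned in 4. With clones of exactly 2 cells, Gzmb was -1.30, Prf1 -0.0032, Tigit -0.0011, Tox -0.27, Il2ra -0.055 and Cd40lg 0.22. With 1 or both of WT-1 and 5XFAD-1 or any other pool left out, Gzmb was -0.038 to 2.00, Il2ra -0.15 to 0.54, Cd40lg -0.51 to 0.12, Rora -0.037 to 0.42 and Cd44 -0.058 to 0.18, the lowest Gzmb and Il2ra and the highest Cd40lg without both. Without naive-like cells, Cxcr3 was -0.087, Ctla4 -0.012, Rora -0.28 and Cd44 -0.52. With 1 cell per clone, Tox was -0.13, Il2ra -0.35 and Cd40lg 0.10. Within the separate run, Ctla4 was -0.0083, Cd40lg 0.24 and Il17a 0.74. Cd44 was -0.034 with no filter and -0.0090 within the common run. Gzmb, Ccl3 and Eomes each lost the call with DESeq2 and without 5XFAD-1. Gzmb and Eomes lost it also without WT-1 and with clones above 10 cells left out. The cause was not tested. The splits by run, the removal of clones above 10 cells, list counts under other settings (clone sizes included) and the pools left out for the mitochondrial share were chosen after seeing the data. The 13 cells of the WT-1 expanded sum limit detection, as do folds under 2 in a simulation that held no clones.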
